A study of Homo sapiens with 4 samples.

Results

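The matrix metalloproteases (MMPs), the ADAMs, the ADAMTS proteases and their inhibitors were examined in human cells that overexpressed U1 snRNA. The set was fixed by gene symbol and held 14 MMP, 9 ADAM and 10 ADAMTS genes and 5 inhibitor genes, the 4 TIMPs and RECK. All 38 were among the 25283 rows of the count table, and all 38 passed the filter on low counts. The cells were derived from the H1 line of human embryonic stem cells, an established line, by way of neural progenitors and a neuronal maturation medium, and the labels call them neurons. All cells were exposed to a lentiviral vector for 36 hours. It was an empty vector in 2 libraries labelled wild type (control) and a U1 snRNA overexpression vector in 2 libraries (U1_OE). The treatment text of the control libraries names the overexpression vector as well, so the groups rest on the titles and genotype labels. Nothing in the labels gives each library a culture of its own, so p-values measure only the spread between these libraries, which may be technical. The libraries held 16713505 to 19057423 estimated counts each. The level of U1 snRNA itself was not analysed here.

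U1 snRNA is the RNA of the particle that binds 5′ splice sites and holds back premature cleavage and polyadenylation of transcripts. MMPs, ADAMs and ADAMTS proteases are zinc enzymes that are made as inactive precursors with a propeptide. MMPs cut collagens and other matrix proteins, ADAMs release the outer parts of membrane proteins, and ADAMTS enzymes process procollagens and cut large proteoglycans. TIMPs bind the active site and block it, and RECK is a membrane-anchored inhibitor. Fibroblasts are a main source of many of these proteins, and in neural tissue ADAMs act on adhesion molecules and growth factor precursors.

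The catalytic site is what the protease families share. Its coding sequence is shown for MMP14 and MMP2, the most abundant proteases, and for 5 further MMP, ADAM and ADAMTS genes as examples of each family among those described below, with the codons of the 3 histidines that hold the zinc ion in capitals.
MMP14: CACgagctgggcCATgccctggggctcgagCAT
MMP2: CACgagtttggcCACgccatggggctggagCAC
MMP11: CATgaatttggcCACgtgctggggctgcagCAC
MMP28: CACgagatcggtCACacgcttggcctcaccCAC
ADAM19: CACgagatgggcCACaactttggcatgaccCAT
ADAMTS14: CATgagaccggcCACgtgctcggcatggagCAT
ADAMTS9: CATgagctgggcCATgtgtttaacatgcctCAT

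These 33-base stretches were read from the longest coding transcript of each gene in GENCODE v29 (GRCh38). They lie in exon 5 of MMP14 (chr14:22843283-22843315, plus strand), exon 8 of MMP2 (chr16:55491827-55491859, plus strand), exon 5 of MMP11 (chr22:23780885-23780917, plus strand), exon 5 of MMP28 (chr17:35770167-35770199, minus strand) and exon 11 of ADAM19 (chr5:157505734-157505766, minus strand). In ADAMTS14 (chr10:70732343-70733900, plus strand) the stretch runs from exon 7 into exon 8, and in ADAMTS9 (chr3:64651148-64654369, minus strand) from exon 8 into exon 9. The metzincin zinc-binding motif was found in 14 of 14 MMP, 7 of 9 ADAM and 10 of 10 ADAMTS genes. The ADAMs without it were ADAM22 and ADAM23, which are known as catalytically inactive adhesion receptors of neurons. ADAMTS9 has an asparagine codon (aac) where the other sequences shown have a glycine codon. A cysteine switch motif, the propeptide stretch that masks the zinc ion, was found in 14 of 14 MMP genes. A cleavage motif for furin-type convertases lay within 200 codons before the zinc motif in 8 MMP, 7 ADAM and 8 ADAMTS genes.

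TIMP1, MMP14 and MMP2 had the highest levels of the set. Levels were compared between genes as CPM (counts per 1000000 counts of a library, after scaling) per kilobase of exonic length, an estimate that depends on the annotated length. TIMP1 was the highest, with 1060 and 796 CPM per kilobase in the control and 1520 and 1270 in the U1_OE libraries. MMP14, a membrane-anchored collagenase that activates pro-MMP2, followed with 549 to 755 over the 4 libraries, then MMP2, the main gelatinase of fibroblasts, with 209 to 294. The ranges of these 3 genes did not overlap. TIMP3 (101 to 183) and TIMP2 (69.7 to 102) came next and did overlap, and ADAM9 led the ADAMs with 35.6 to 51.7. The lowest member was ADAM22, at 0.0344 to 0.068. A level of 1 CPM or more in all 4 libraries was found for 33 of the 38 genes and one of 100 CPM or more for 7. MMP14 and MMP2 together made 96.0% to 97.3% of the counts of the 14 MMP genes in the set.

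**Figure D1:**
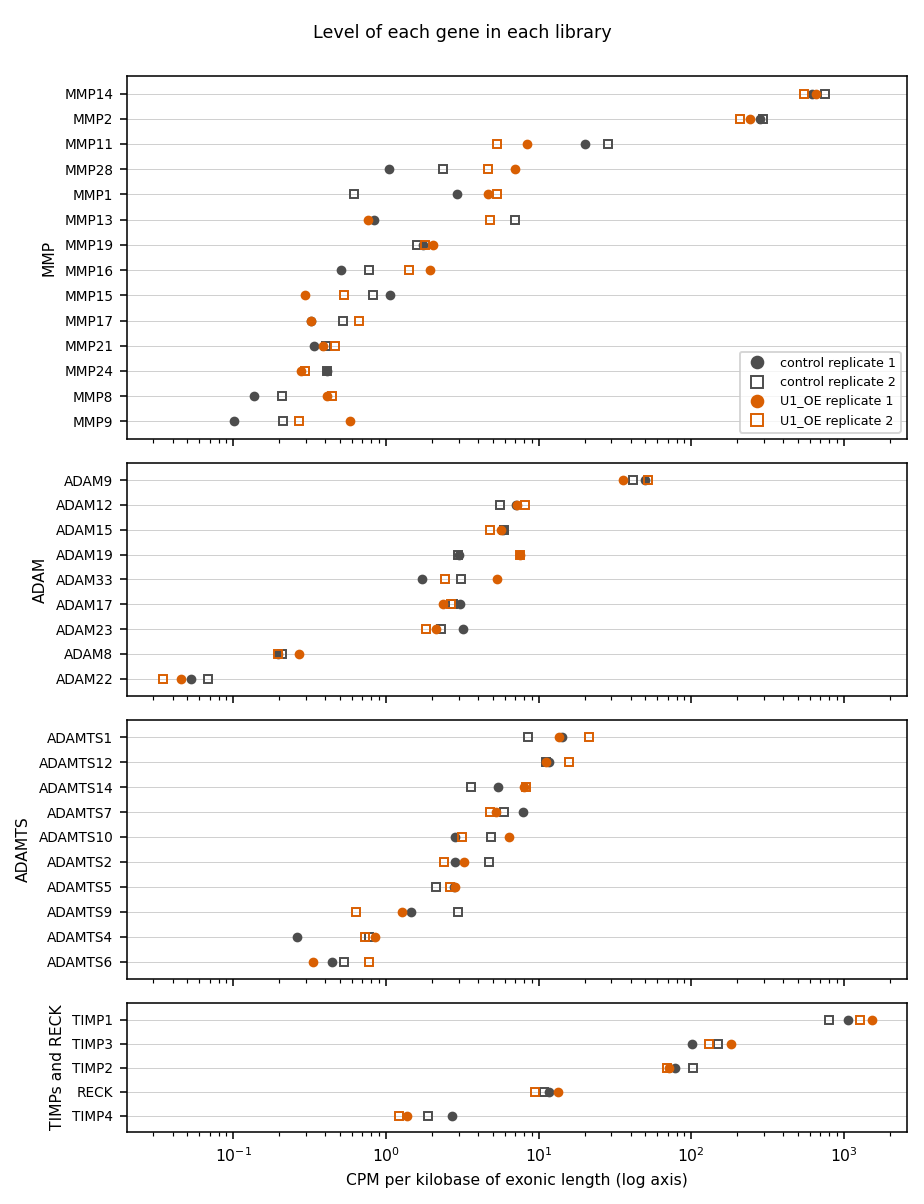
Level of each of the 38 genes in each library, in CPM per kilobase of exonic length on a log axis, by family. Circles are replicate 1 and squares replicate 2, grey for control and orange for U1_OE. TIMP1, MMP14 and MMP2 are the 3 highest genes, followed by TIMP3, and the groups are apart for ADAM19 and MMP11.

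Several defining markers of the labelled cell type were near 0, whereas others such as TUBB3 and UCHL1 were not. Of the neuronal markers, DCX had at most 0.157 CPM, STMN2 at most 0.294 and RBFOX3 at most 0.294 in any library, SNAP25 had 5.53 to 8.19 and MAP2 2.65 to 6.59 CPM, and ELAVL3 and ELAVL4 were not among the rows analysed. The 18 neuronal markers among the rows summed to 1352 and 884.2 CPM under control and to 1153 and 1443 CPM under U1_OE, most of it from UCHL1 (693.2 to 1093 CPM). DESeq2 called TUBB3 and GAP43 of this list higher (0.548% of all genes) and L1CAM lower (0.423%) in U1_OE. TUBB3 had 159.3 and 103.7 CPM in control cells against 263.7 and 337.9 CPM in U1_OE cells. GAP43 had 3.30 and 1.27 CPM against 46.9 and 11.5 CPM, and L1CAM 57.5 and 57.3 CPM against 16.6 and 19.97 CPM. Markers of neural progenitors and glia summed to 87.2 to 113.2 CPM. Those of endothelium summed to 32.1 and 37.8 CPM under control and to 58.8 and 93.6 CPM under U1_OE, most of it from PECAM1 (22.9 to 64.2 CPM). FLT1, which DESeq2 called, and TEK were also higher in both U1_OE libraries. CDH5, VWF, KDR and TIE1 had at most 0.94 CPM, with CDH5 and KDR lower and TIE1 higher in both. CLDN5 was not among the rows analysed. Mesenchymal markers, a list of 22 genes led by collagens, summed to 85220 and 96390 CPM under control and to 104400 and 96180 CPM under U1_OE. A positive log2 fold change was found for 18 of the 22 (median 0.42), against 49.3% of all tested genes. DESeq2 called COL6A1, POSTN and LOX higher, 3 of the 22 (0.548% of all genes). None of the 22 passed edgeR's test, and 8 were higher at an unadjusted p under 0.05 (4.36% of all genes). The part of these cell types in the results on metalloproteases was not tested. In bulk RNA, more cells of a type and more RNA per cell cannot be told apart.

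The main comparison asked which of these genes differed between U1_OE and control cells. With edgeR (quasi-likelihood test, p-values adjusted by Benjamini-Hochberg over all genes), 0 of the 38 members and 0 of 17317 tested genes (0.0%) were under an adjusted p of 0.05. An unadjusted p under 0.05 was found for 7 members (18.4%), against 1572 of all tested genes (9.08%). Of the 7, ADAM19, MMP16, MMP28, ADAMTS14 and TIMP1 were higher in U1_OE (4.36% of tested genes) and MMP11 and MMP15 lower (4.72%). DESeq2 called 3 members, ADAM19 and MMP16 higher and MMP11 lower, against 179 of 18420 genes (0.972%; 0.548% higher and 0.423% lower). limma-voom called 0 members and 0 of 17317 genes (0.0%), with an unadjusted p under 0.05 for 9 members and 8.94% of genes. No test over the list was made. Counts of 17317 genes were also simulated, with 1 common dispersion (0.08688) for all genes rather than the spread of each gene. In these edgeR recovered 4 of 100 genes changed 2-fold and 73 of 100 changed 4-fold, with 0 false calls. DESeq2 recovered 6 and 66, with 4 false calls.

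The members did not differ in a single direction. A positive log2 fold change was found for 22 of 38 (57.9%), with a median of 0.20, against 49.3% and a median of -0.005 over all tested genes. In 22 of 38 the 2 U1_OE libraries lay both above or both below the control libraries, which was so for 41.8% of all tested genes. U1_OE was the higher group in 10 of the 22 (19.7% of tested genes) and the lower in 12 (22.0%). Of these, MMP9 (4 to 22 counts) and ADAM22 (8 to 15 counts) reached the level of the filter on low counts only in their higher group. Their separation is thus not independent of that filter. By family, 8 of 14 MMP, 4 of 9 ADAM, 7 of 10 ADAMTS and 3 of 5 inhibitor genes were positive, with medians of 0.20, -0.06, 0.22 and 0.01.

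**Figure D2:**
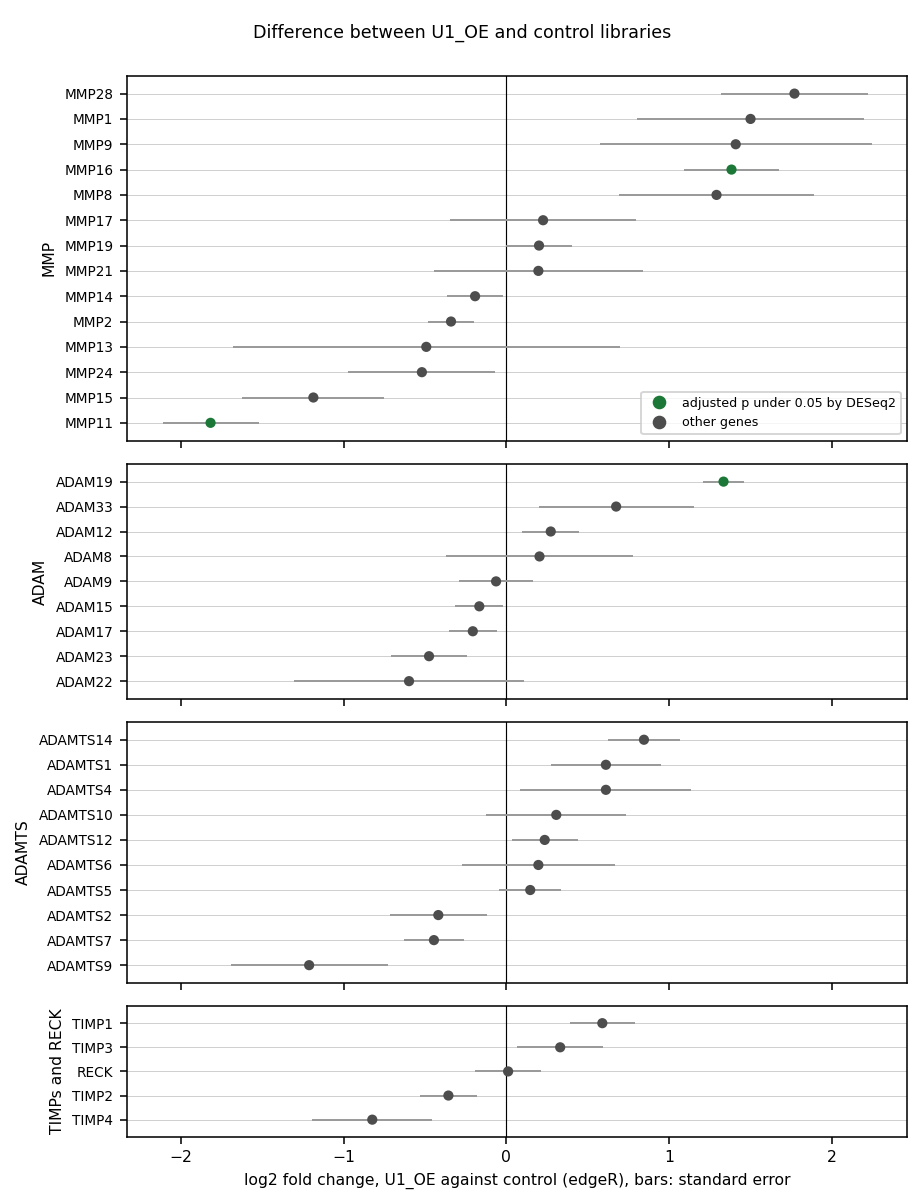
Log2 fold change of U1_OE against control for each gene by edgeR, by family, with bars for the standard error. Green points are the 3 genes with an adjusted p under 0.05 by DESeq2, MMP11 at -1.82, MMP16 at 1.38 and ADAM19 at 1.33, and genes of each family lie on both sides of 0.

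Among the proteases, ADAM19 had the smallest p. ADAM19, a membrane-bound sheddase that can release neuregulins, had 23.3 and 22.9 CPM in control cells against 58.1 and 58.6 CPM in U1_OE cells. The libraries of a group nearly coincided, and the groups lay 2.52-fold apart. Its log2 fold change by edgeR was 1.33 ± 0.12 (SE), with an unadjusted p of 0.00014, rank 3 among the 17317 tested genes, and an adjusted p of 0.459. By DESeq2 it was 1.35 ± 0.22 with an adjusted p of 1.73e-06. DESeq2 did not call it without control replicate 1 (adjusted p = 0.0853) or control replicate 2 (0.0993), although the value stayed at 1.36 and 1.33. ADAM19 spans chromosome 5, 157395534 to 157575775, on the minus strand in GENCODE v29 and shares 62 exonic bases with CYFIP2 on the other strand, which had 5.09 to 11.8 CPM with overlapping groups.

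MMP11 differed in the other direction. MMP11, also called stromelysin-3, is a protease of stromal fibroblasts that is activated inside the cell by furin. It had 104.4 and 146.4 CPM in control cells against 43.6 and 27.6 CPM in U1_OE cells, so that the lowest control library had more than either U1_OE library. Control was 3.52-fold higher, with a log2 fold change of -1.82 ± 0.29 by edgeR (unadjusted p = 0.00177, adjusted p = 0.459) and of -1.81 ± 0.30 by DESeq2 (adjusted p = 1.46e-06). DESeq2 called MMP11 in each of its 7 alternative fits, with log2 fold changes of -2.16 to -1.52 when a library was left out. The gene lies on chromosome 22, 23768226 to 23784316, on the plus strand. It shares 218 exonic bases (4.21%) with CHCHD10 on the other strand, and reads there cannot be assigned where strand is not recorded. CHCHD10 had 33.5 to 50.2 CPM in the control and 32.8 to 61.5 CPM in the U1_OE libraries, with overlapping groups.

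MMP28 and MMP16 were higher in both U1_OE libraries than in either control library. MMP28, or epilysin, a secreted MMP of epithelia and injured tissue, had 3.0 and 6.75 CPM in control cells against 20.1 and 13.3 CPM in U1_OE cells. Its means were 4.87 ± 2.65 and 16.7 ± 4.78 CPM (SD, n = 2), a ratio of 3.43. The log2 fold change was 1.77 ± 0.45 by edgeR (unadjusted p = 0.0115, adjusted p = 0.459), and DESeq2 did not call it (adjusted p = 0.0554). Leaving out control replicate 2 gave 2.47 by edgeR, and leaving out control replicate 1 gave 1.33. MMP16, a membrane-anchored relative of MMP14, had 6.18 and 9.35 CPM in control cells against 23.5 and 17.1 CPM in U1_OE cells. Its log2 fold change was 1.38 ± 0.29 by edgeR (unadjusted p = 0.00543, adjusted p = 0.459) and 1.40 ± 0.40 by DESeq2 (adjusted p = 0.0478). That DESeq2 call was lost in 6 of 7 alternative fits, with adjusted p of 0.0551 to 1.00, and kept only in the fit on genes that averaged 50 counts or more (0.0135).

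**Figure D3:**
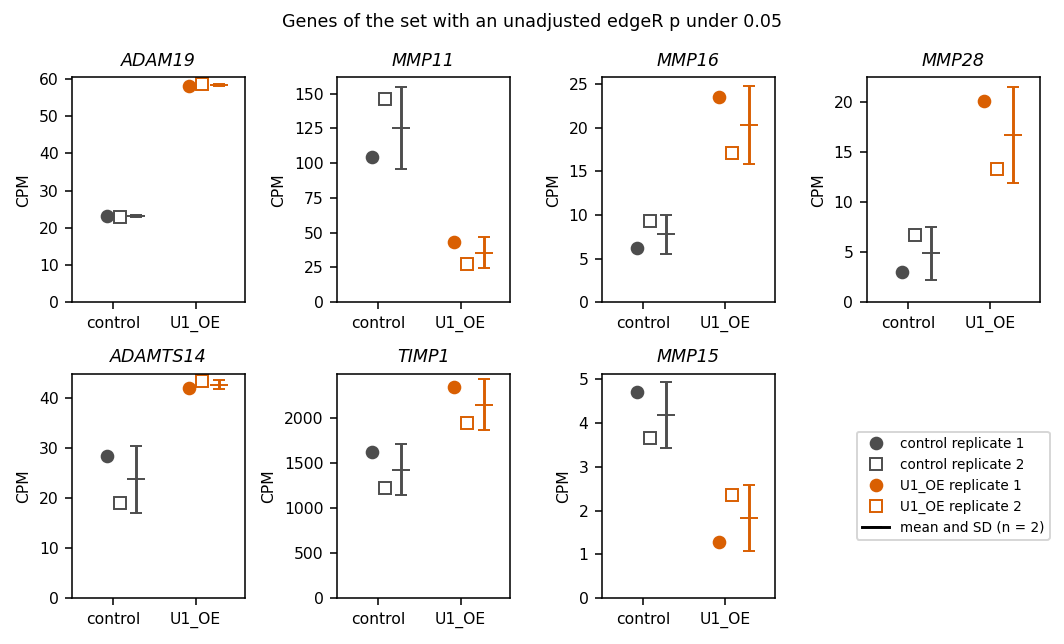
CPM in each library of the 7 genes with an unadjusted edgeR p under 0.05, with the mean and SD of each group (n = 2) beside the points, on linear axes from 0. ADAM19 libraries of a group nearly coincide at about 23.1 and 58.4 CPM, whereas those of MMP28 and TIMP1 are spread more widely.

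Of the other membrane-type MMPs, MMP15, MMP14 and MMP24 had negative log2 fold changes and MMP17 a positive one within its error. MMP15, a further relative of MMP14, had 4.71 and 3.65 CPM in control cells against 1.29 and 2.36 CPM in U1_OE cells. Its log2 fold change of -1.19 ± 0.44 had an unadjusted p of 0.0429 and was not called by DESeq2 (adjusted p = 0.916). MMP14 had 2756 and 3370 CPM in control cells against 2909 and 2453 CPM in U1_OE cells, with overlapping groups and a log2 fold change of -0.19 ± 0.17. MMP2 had 1383 and 1449 CPM in control cells against 1204 and 1033 CPM in U1_OE cells. Both U1_OE libraries lay under the control libraries, by -0.34 ± 0.14 on the log2 scale (unadjusted p = 0.0642). The GPI-anchored MMP17 had 1.29 to 2.67 CPM and overlapping groups (0.23 ± 0.57). MMP24, a membrane-type MMP of the nervous system, had 1.83 CPM in both control libraries against 1.23 and 1.31 CPM in U1_OE cells (-0.52 ± 0.45). Both U1_OE libraries were lower, and 18.1% of its exonic length overlaps MMP24OS on the other strand, which had 85.0 to 137.5 CPM.

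The secreted collagenases MMP1, MMP8 and MMP13 were low or uneven between libraries. MMP1, which cuts fibrillar collagen, had 5.77 and 1.22 CPM in control cells against 9.24 and 10.5 CPM in U1_OE cells. The control libraries thus differed more from each other than the U1_OE libraries did. The log2 fold change of MMP1 was 1.5 ± 0.70 (unadjusted p = 0.0851) and ran from 0.77 without control replicate 2 to 3.03 without control replicate 1. MMP13, a collagenase of cartilage and bone, had 2.36 and 19.8 CPM in control cells against 2.16 and 13.5 CPM in U1_OE cells. Within each group its libraries differed more than the groups did, and the log2 fold change was -0.49 ± 1.19. MMP8, the neutrophil collagenase, had 0.471 and 0.719 CPM in control cells against 1.42 and 1.52 CPM in U1_OE cells, on 8 to 29 counts (unadjusted p = 0.0840). MMP9, a gelatinase that myeloid cells make, had 0.236 and 0.498 CPM against 1.36 and 0.629 CPM, on 4 to 22 counts. Of the markers of blood cells and microglia, PTPRC, ITGAM, P2RY12, ELANE and MPO were not among the rows analysed. CSF1R was higher in both U1_OE libraries (0.353 and 0.277 CPM against 0.678 and 1.05 CPM, on 5 to 20 counts). CX3CR1 was lower in both, on 1 to 3 counts. AIF1, CD14, TYROBP and LYZ had overlapping groups and at most 1.79 CPM (AIF1 in U1_OE replicate 1). CD68, which fibroblasts also express, made most of the list's sum of 49.5 and 41.9 CPM in control cells against 72.5 and 83.1 CPM in U1_OE cells. The part of such cells in MMP8 and MMP9 was not tested. The exons of MMP1, MMP9 and MMP19 also overlap antisense genes or pseudogenes that are not among the rows analysed. MMP19 had 7.41 to 9.48 CPM and MMP21 0.647 to 0.891 CPM.

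None of the remaining 8 ADAMs had an unadjusted p under 0.05. ADAM9, a widely expressed sheddase, had 345.3 and 284.9 CPM in control cells against 245.8 and 357.3 CPM in U1_OE cells, with overlapping groups and a log2 fold change of -0.06 ± 0.23. ADAM12, a mesenchymal ADAM, had 69.9 and 54.8 CPM against 70.8 and 79.9 CPM (0.27 ± 0.17). ADAM17, the TNF-converting enzyme, had 32.7 and 29.6 CPM against 25.5 and 28.5 CPM (-0.21 ± 0.15), and ADAM15 31.5 to 38.9 CPM. Of the exonic length of ADAM17, 12.3% overlaps IAH1 on the other strand, which had 19.2 and 20.1 CPM against 9.98 and 15.5 CPM, so part of the ADAM17 counts may be shared with it. The inactive neuronal ADAM23 and ADAM22 were lower in both U1_OE libraries, as were 22.0% of all tested genes. ADAM23 had 20.6 and 14.7 CPM in control cells against 13.6 and 11.8 CPM in U1_OE cells (-0.48 ± 0.23, unadjusted p = 0.0973). ADAM22 had 0.648 and 0.829 CPM against 0.554 and 0.419 CPM (-0.60 ± 0.71), on 8 to 15 counts. It reached the level of the filter on low counts only in control cells. ADAM33, an ADAM of mesenchymal cells, had 10.0 and 18.2 CPM against 31.0 and 14.1 CPM with overlapping groups (0.68 ± 0.48), and ADAM8, an ADAM of leukocytes, 0.942 to 1.29 CPM.

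Within the ADAMTS family, the procollagen N-proteinases ADAMTS14 and ADAMTS2 had values of opposite sign. ADAMTS14 had 28.4 and 19.1 CPM in control cells against 42.1 and 43.3 CPM in U1_OE cells. Both U1_OE libraries lay above the control libraries, at a log2 fold change of 0.85 ± 0.22 (unadjusted p = 0.0132, adjusted p = 0.459; DESeq2 adjusted p = 0.185). ADAMTS2, which cuts the same type of propeptide, had 24.8 and 41.0 CPM against 28.5 and 20.9 CPM, with overlapping groups (-0.42 ± 0.30). The difference between these 2 genes was not tested. Among the enzymes that cut proteoglycans such as versican, ADAMTS9 had 15.6 and 31.5 CPM in control cells against 13.6 and 6.76 CPM in U1_OE cells. Its log2 fold change was -1.21 ± 0.48 (unadjusted p = 0.0546), and it was -0.62 without control replicate 2 and -1.78 without U1_OE replicate 1. ADAMTS1 had 101.2 and 59.9 CPM against 95.8 and 150.4 CPM, and ADAMTS4 2.71 and 7.96 CPM against 8.81 and 7.55 CPM, both with overlapping groups. ADAMTS5 stayed between 19.2 and 25.6 CPM. ADAMTS7 and ADAMTS12, a related pair that cut cartilage oligomeric matrix protein, had 60.6 and 45.6 CPM against 40.7 and 37.3 CPM (-0.45 ± 0.18), and 114.3 and 109.1 CPM against 108.7 and 154.3 CPM (0.24 ± 0.20). ADAMTS10 had 16.2 to 36.6 CPM and ADAMTS6 2.83 to 6.66 CPM, with overlapping groups.

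Of the inhibitors, TIMP1 was higher and TIMP2 and TIMP4 lower in both U1_OE libraries than in either control library. Of all tested genes, 19.7% were higher and 22.0% lower in this way. TIMP1, a secreted inhibitor of most MMPs, had 1629 and 1227 CPM in control cells against 2347 and 1950 CPM in U1_OE cells, with means of 1428 ± 284 and 2149 ± 281 CPM (SD, n = 2). The log2 fold change was 0.59 ± 0.20 (unadjusted p = 0.0320, adjusted p = 0.513), and DESeq2 did not call it (adjusted p = 0.167). TIMP2, which also takes part in the activation of pro-MMP2 by MMP14, had 440.2 and 575.3 CPM against 400.9 and 392.5 CPM (-0.36 ± 0.17, unadjusted p = 0.0972). TIMP4 had 4.47 and 3.10 CPM against 2.28 and 1.99 CPM (-0.82 ± 0.37). TIMP3, the matrix-bound inhibitor that also blocks ADAM17, had 465.9 and 684.8 CPM against 843.6 and 604.3 CPM, with overlapping groups. RECK had 57.0 to 80.3 CPM, and both groups lay around the same level, with a log2 fold change of 0.01 ± 0.20.

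Set against MMP14 and MMP2, the 2 most abundant proteases, within each library, TIMP1 RNA had the same direction. The ratio of TIMP1 to MMP14, each in CPM per kilobase, was 1.71 and 1.05 in the control and 2.34 and 2.30 in the U1_OE libraries, and that of TIMP1 to MMP2 was 3.77 and 2.71 against 6.24 and 6.04. Both ratios were higher in each U1_OE library than in each control library, and such ratios do not depend on how library sizes are scaled. For MMP2 this adds nothing new, as TIMP1 was higher and MMP2 lower in both U1_OE libraries. The ratio of TIMP2 to MMP2 was 0.279 and 0.348 against 0.292 and 0.333, and that of TIMP2 to MMP14 0.127 and 0.135 against 0.109 and 0.127, without a separation of the groups. Levels of RNA do not give levels of active enzyme or inhibitor.

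**Figure D4:**
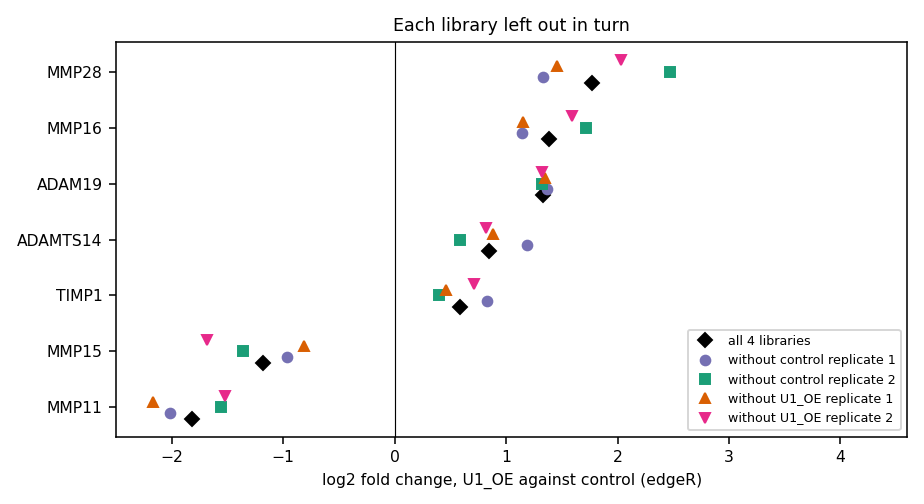
Log2 fold change by edgeR for the 7 genes with an unadjusted p under 0.05, over all 4 libraries (black diamonds) and with each library left out in turn. Every value keeps its sign, ADAM19 stays within 1.32 and 1.37, and MMP28 runs from 1.33 to 2.47.

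The plasminogen system, which activates several pro-MMPs, was examined as a neighbouring pathway. Log2 fold changes were positive for 9 of its 11 tested genes (median 0.63), against 49.3% of all tested genes. DESeq2 called 4 higher (0.548% of all genes) and 0 lower, and none passed edgeR's test, with 4 higher at an unadjusted p under 0.05 (4.36% of all genes). PLAT, tissue plasminogen activator, had 117.2 and 115.1 CPM in control cells against 192.4 and 363.6 CPM in U1_OE cells (DESeq2 log2 fold change 1.28 ± 0.30, adjusted p = 0.00471). SERPINE2, an inhibitor of plasminogen activators and thrombin, had 257.7 and 139.0 CPM against 775.9 and 372.8 CPM (1.54 ± 0.37, adjusted p = 0.00628). PLAUR, the urokinase receptor, had 150.4 and 136.7 CPM against 205.1 and 298.5 CPM (0.83 ± 0.24, adjusted p = 0.0474). S100A10, a plasminogen receptor subunit, had 607.1 and 549.1 CPM against 893.6 and 898.9 CPM (0.65 ± 0.15, adjusted p = 0.00471). The system's activators, receptors and an inhibitor were thus all among the higher genes. These calls depended on single libraries. DESeq2 did not call PLAT when U1_OE replicate 2 (0.0785) or either control library (0.135 and 0.160) was left out, nor SERPINE2 without control replicate 2 (0.309), U1_OE replicate 1 (1.00) or U1_OE replicate 2 (0.234). PLAUR was called only without U1_OE replicate 1 (0.000395), and S100A10 in none of the fits that left out a library (0.0654 to 1.00). In those fits the DESeq2 log2 fold change ran from 0.94 without U1_OE replicate 1 to 2.06 without control replicate 1 for SERPINE2. For PLAT it ran from 0.73 without U1_OE replicate 2 to 1.67 without U1_OE replicate 1, and for PLAUR from 0.52 to 1.08 over the same fits. For S100A10 it stayed between 0.57 and 0.72.

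Other genes around the proteases gave few calls. FURIN, the convertase that removes many of these propeptides, had 39.6 and 40.3 CPM in control cells against 54.9 and 58.2 CPM in U1_OE cells (log2 fold change 0.50 ± 0.12, unadjusted p = 0.0105, DESeq2 adjusted p = 0.400). Of 6 tested convertases 4 were positive and 0 called. The 23 proteases with a convertase motif were 13 positive and 10 negative, with a median of 0.20, and the 8 with a zinc motif but no such motif were 6 positive and 2 negative, with a median of 0.27. ADAMTS-like genes resemble ADAMTS proteases but lack the catalytic domain. Of 7 tested, DESeq2 called 1 higher, ADAMTSL1 (0.548% of all genes). It had 16.4 and 35.5 CPM against 77.0 and 71.9 CPM (DESeq2 log2 fold change 1.53 ± 0.36, adjusted p = 0.00553). Without control replicate 1 the value was 1.08 (adjusted p = 0.274), without control replicate 2 it was 2.19 (9.08e-06), and without U1_OE replicate 1 it was 1.5 (0.0531). PAPLN, which encodes papilin, had 13.7 and 22.2 CPM against 5.36 and 7.13 CPM (DESeq2 adjusted p = 0.0503). Of the 8 tested MMP, ADAM and ADAMTS genes outside the set 3 were positive and 5 negative, with none called by either tool, and ADAM10, the main sheddase beside ADAM17, had 161.5 to 220.8 CPM. The 5 tested astacin proteases and enhancers and the 10 regulators of ADAM10 and ADAM17 had 1 and 8 positive values and 0 calls.

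Among 18 tested genes of shed growth factors and receptors 9 were positive and 9 negative, and DESeq2 called 2 (0.972% of all genes). At an unadjusted edgeR p under 0.05, 3 were higher (4.36% of all genes) and 2 lower (4.72%). CD44, a hyaluronan receptor that MMP14 and ADAM10 can cut, had 83.5 and 87.1 CPM against 188.1 and 275.2 CPM (DESeq2 log2 fold change 1.46 ± 0.24, adjusted p = 1.30e-06). L1CAM, an adhesion molecule shed by ADAM10 and also on the list of neuronal markers, had 57.5 and 57.3 CPM against 16.6 and 19.97 CPM (-1.64 ± 0.25, adjusted p = 7.33e-08). These substrates thus lay on opposite sides, and DESeq2 called both without each library in turn. VCAN, the proteoglycan versican, had 353.4 and 599.4 CPM against 642.0 and 711.0 CPM and was not called (0.672). The 13 tested AP-1 and ETS factors, which are known to drive several MMP promoters, were 8 positive and 5 negative with 0 called, and of 7 tested inducers and surface partners 6 were positive with 0 called. The pattern TGANTCA, a looser form of the AP-1 motif with any base at its centre, reads alike on both strands. It was searched in RefSeq promoters (GRCh38.p14, 250 bases before to 50 after the start), which were held for 23 members. A match was found for 1 of these, ADAMTS12 (with A at the centre), and in 7.71% of all 35116 promoters. MMP1, MMP2, MMP9, MMP13, MMP16 and MMP28 were among the members without a promoter sequence, so they were not searched.

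Gene length was described because U1 is known to protect long genes from premature polyadenylation. The 11 members that span at least 100 kb were 5 positive and 6 negative, with a median log2 fold change of -0.06, and the 27 shorter ones 17 positive and 10 negative, with a median of 0.20. ADAM19 and MMP16 (positive) and ADAMTS9 (negative) are among the long genes, and MMP28 (positive) and MMP11 (negative) among the short ones. Across the 38 members Spearman's rho between span and log2 fold change was -0.134, and across 13611 tested genes with a matched span it was 0.014. These points share their libraries, and genes are not independent replicates.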

How the data were processed

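The members and all gene lists were chosen with earlier results of these data known. Estimated counts per gene make up the deposited table, and most are not whole: 1.99% of values above 0 lie within 0.01 of a whole number. The sources used here do not give the origin of these fractions, so a low value is not a number of reads. Trim Galore, STAR, featureCounts, DESeq2 and the hg38 build are named, without versions or roles, in the submitters' processing notes. Whether counting used strand is not stated.

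Values were rounded to whole numbers. The main test was edgeR 4.0.16 in R 4.3.3 (filterByExpr, TMM, quasi-likelihood test, Benjamini-Hochberg over 17317 genes, threshold 0.05, no covariate). Standard errors of edgeR were worked back from the F statistic. DESeq2 1.42.0 (Wald test, all 25283 rows) and limma-voom 3.58.1 were alternatives, as were unfiltered genes, genes that averaged 50 counts or more, RLE size factors, unscaled library sizes, a replicate block and each library left out. Levels are TMM-scaled CPM, divided by GENCODE v29 exonic length where genes are compared. Totals of 16713505 to 19057423 counts limit precision at low CPM, and elsewhere the number of libraries does. Values in every library were given for the 2 most abundant members of a family, for members with an unadjusted edgeR p or a DESeq2 adjusted p under 0.05, and for members with groups apart, a 1.5-fold difference and a mean of at least 1 CPM. Values of further members were added for completeness. The procedures were tested on simulated data, and replicates of a group differed by more than sampling noise.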

Additional observations from a re-analysis of the deposited data

How the results depend on the processing

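Over RLE size factors, unscaled library sizes, unfiltered genes, genes that averaged 50 counts or more, limma-voom, the replicate block and each library left out, edgeR or limma-voom called 0 genes and 0 members, as in the fit reported (leave-one-out range 0 to 0). DESeq2 called 179 genes and 3 members. Its count of genes was 82 with the replicate block and 57 to 311 with a library left out (57 and 63 without control replicates 1 and 2, 311 without U1_OE replicate 2), and its count of members 2 to 4 over all its alternatives. MMP28 was called by DESeq2 among genes that averaged 50 counts or more and without control replicate 2, and MMP1 without control replicate 1. Equal replicate numbers are not said to share a culture, and the deviations of same-numbered libraries had a correlation of -0.038. Of the 38 log2 fold changes by edgeR, 29 kept their sign under every alternative and 9 did not, in 18 of 411 values. With a library left out these ran from -2.36 to 1.74 for MMP13, -0.40 to 0.67 for MMP17, -0.025 to 0.41 for ADAM8, -0.36 to 0.19 for ADAM9, -0.044 to 0.39 for ADAMTS5, -0.55 to 0.69 for ADAMTS6, -0.28 to 0.75 for ADAMTS10, -0.043 to 0.48 for ADAMTS12 and -0.24 to 0.23 for RECK. RECK, at 0.01 in the fit reported, was -0.027 with unscaled library sizes, -0.007 among genes that averaged 50 counts or more, -0.010 with limma-voom and -0.008 with the replicate block. A group reduced to a single library was taken to have the spread of the other group. The cause of these shifts was not tested.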
